A study of Mus musculus with 9 samples.

Results

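The miR-15 family is a group of microRNAs (miRNAs) known for holding back the cell cycle, and its 7 members in the mouse melanoma line B16F1 are described here: mmu-mir-15a, mmu-mir-15b, mmu-mir-16, mmu-mir-195a, mmu-mir-322, mmu-mir-497a and mmu-mir-503. The members were chosen by name. They held 179 of the 6414 entries in the table of small RNA counts, of which 164 were sequence tags and 15 were mature names. Counts were summed by member and by arm, the 5p or the 3p side of the hairpin, with the copies mir-16-1 and mir-16-2 added up, and 12 of these sums had at least 1 count. Small RNA was sequenced from 9 samples of cells: 3 of unexposed control cells, 3 exposed to 5 mM L-Tyr (the amino acid L-tyrosine) and 3 exposed to 5-Brd-2′-dU (the thymidine analogue bromodeoxyuridine) at 2.5 µg/mL, each for 72 h. B16F1 is a single established line and all groups were unmodified cells of it, so that the values speak of this line alone. The comparisons address whether the exposures, which the study used to change pigmentation and to slow growth, were accompanied by different levels of these miRNAs.

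A mature miRNA guides an Argonaute protein to messenger RNAs that pair with its seed, the stretch from base 2 to base 8 at its 5′ end, and the targets are then repressed. Members of the miR-15 family share their seed and are known to repress cyclins D and E, CDK6, WEE1, CHK1 and the survival factor BCL2, so that high levels favour arrest in G1. miR-322 is the rodent counterpart of human miR-424, and miR-322 and miR-503 are made from 1 transcript and known to rise when myoblasts leave the cell cycle.

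The mature sequences are shown because the seed defines the family. They were taken from RefSeq (GRCm38.p6), are written 5′ to 3′, and have the seed in capitals. The following 6 members have the seed AGCAGCA in their 5p arm.

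miR-15a-5p: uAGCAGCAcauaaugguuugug
miR-15b-5p: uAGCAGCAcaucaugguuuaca
miR-16-5p: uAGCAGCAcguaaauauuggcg
miR-195a-5p: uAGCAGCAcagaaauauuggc
miR-322-5p: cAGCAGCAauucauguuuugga
miR-497a-5p: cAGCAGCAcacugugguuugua

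The seed of miR-503-5p differs in its last base, and the 3p arm of miR-322, which held most counts of that hairpin, has a seed of its own.

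miR-503-5p: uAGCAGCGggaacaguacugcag
miR-322-3p: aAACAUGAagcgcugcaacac

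Each sequence was found in mm9, the build of the counts. miR-15a-5p lies at chr14:62250912-62250933 and 1 copy of miR-16-5p at chr14:62250773-62250794, both on the minus strand in an intron of the long non-coding gene Dleu2. miR-15b-5p at chr3:68813697-68813718 and the other copy of miR-16-5p at chr3:68813840-68813861 lie on the plus strand in an intron of Smc4, which encodes a condensin subunit. miR-497a-5p (chr11:70048232-70048253) and miR-195a-5p (chr11:70048564-70048584) are neighbours on the plus strand. miR-322-5p (chrX:50407483-50407504), miR-322-3p (chrX:50407446-50407466) and miR-503-5p (chrX:50407204-50407226) lie on the minus strand of chromosome X. No host gene was annotated for these last 2 pairs.

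The libraries held between 144452 and 424122 counts, and a count of 0 allows up to 3 counts, worth between 7.07 and 20.8 CPM of the unscaled total. Members took 81983 of 2381030 counts, or 3.44%, and from 2.61% to 4.68% of a library. Levels are given in CPM, the counts of a library brought to a common total after scaling with TMM factors found over all 9 libraries. Each fold change used TMM factors found anew over the libraries compared. CPM and fold changes can therefore differ in their order. The melanocyte miRNA miR-211-5p was present in every library (6265 to 24359 CPM). The other melanocyte miRNA looked at, miR-204-5p, was near the floor, with 0 to 14 counts per library. Replicate 3 of 5-Brd-2′-dU stood apart from the others. Its summed level of 5 stromal miRNAs was 269113 CPM, against 1978 to 7400 CPM in the other 8 libraries. Of this sum miR-143-3p made up 263605 CPM, and it alone held 73886 of the library's 381324 counts. Of the 9 stromal arms with a count, 6 were over 3 times the next library. The others were miR-199a-3p (1552 CPM, against at most 938 CPM elsewhere), miR-199b-3p (678 against at most 397 CPM) and miR-199b-5p, at 0 here. The endothelial miR-126a was at 7257 CPM in both arms together (64 to 262 CPM elsewhere), the 2 erythroid miRNAs at 7082 CPM (0 to 286 CPM) and the 3 leukocyte miRNAs at 1502 CPM (0 to 68.7 CPM). Of the 4 muscle miRNAs only miR-1a was counted, in this library, and the other three were at 0 in all 9 libraries. In bulk samples, fewer cells of a type and less RNA per cell cannot be told apart. Of the leukocyte miRNAs, miR-150-5p was at 0 in this library (18 counts in L-Tyr replicate 2), and the hepatic miR-122-5p was at 21.4 CPM, below the 76.3 CPM of L-Tyr replicate 2. Fits, means and counts of calls for 5-Brd-2′-dU were repeated without replicate 3.

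The summed level of the family was close in control and L-Tyr cells and higher on average with 5-Brd-2′-dU, but the place of L-Tyr depended on the scaling. With TMM it was 31359, 33612 and 31358 CPM in the control libraries, 31881, 33626 and 31695 CPM in the L-Tyr libraries, and 33307, 38843 and 36519 CPM in the 5-Brd-2′-dU libraries. The control and L-Tyr ranges overlapped, and the lowest 5-Brd-2′-dU library lay below the highest library of each other group. The mean of 5-Brd-2′-dU was 36223 ± 2780 CPM (SD, n = 3) and 36075 CPM without replicate 3. Scaled by total count, the means were 31213 CPM in control cells, 34971 CPM with L-Tyr and 35679 CPM with 5-Brd-2′-dU, so that L-Tyr lay nearer to 5-Brd-2′-dU. No test was made of this sum because the members were chosen with results known. By arm, miR-15b-5p ranked 17 among the 698 sums with a count, miR-16-5p ranked 31 and miR-322-3p ranked 40, and these 3 arms made up most of the family in every library.

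**Figure D1:**
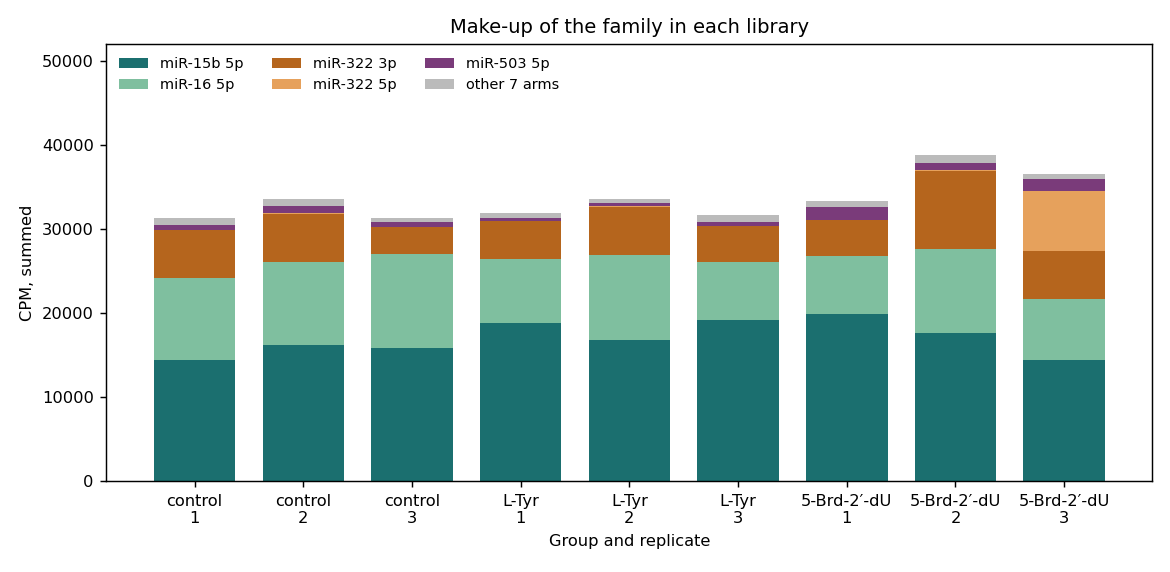
Summed CPM of the family in each of the 9 libraries, with the group and replicate on the x axis and the arms stacked in colours. miR-15b-5p, miR-16-5p and miR-322-3p form most of every bar, and the band of miR-322-5p is wide only in replicate 3 of 5-Brd-2′-dU (7168 CPM, against 0 to 188 CPM in the other 8 libraries).

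miR-15b-5p was the most abundant member in every library. Its level was 14369, 16207 and 15902 CPM in control cells, 18862, 16834 and 19194 CPM with L-Tyr, and 19871, 17692 and 14474 CPM with 5-Brd-2′-dU. All L-Tyr libraries lay above all control libraries, beside 21.5% of all sums tested whose groups were apart in this comparison. With DESeq2's size factors these 2 groups overlapped. With 5-Brd-2′-dU, replicates 1 and 2 lay above all control libraries and replicate 3 lay within their range. The log2 fold change of L-Tyr relative to control was 0.14 ± 0.17 (SE), with an adjusted p of 0.831 by edgeR's quasi-likelihood test. In 5-Brd-2′-dU relative to control cells it was 0.29 ± 0.21 (adjusted p = 0.572 by edgeR), and 0.37 ± 0.19 without replicate 3 (adjusted p = 0.484 by edgeR). The 95% interval of the change was -0.23 to 0.52 with L-Tyr, and with 5-Brd-2′-dU it was -0.20 to 0.79. With all 9 libraries in 1 fit the change was 0.24 ± 0.19 with L-Tyr and 0.16 ± 0.19 with 5-Brd-2′-dU. Which exposure had the larger change thus depended on the scaling.

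miR-16-5p, which is encoded at both the Dleu2 and the Smc4 locus, was second. It measured 9776, 9823 and 11117 CPM in control cells, 7522, 10124 and 6934 CPM with L-Tyr, and 6965, 9973 and 7257 CPM with 5-Brd-2′-dU. In each exposed group 2 of 3 libraries lay below all control libraries and the third lay within their range. With DESeq2's size factors all L-Tyr libraries lay below all control libraries. The log2 fold change was -0.42 ± 0.20 (SE) for L-Tyr, with an unadjusted p of 0.0662 and an adjusted p of 0.360 by edgeR. For 5-Brd-2′-dU it was -0.20 ± 0.24 (adjusted p = 0.765 by edgeR), and -0.17 without replicate 3.

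The ratio of the 2 leading 5p arms does not depend on the scaling between libraries. Per count of miR-15b-5p there were 0.680, 0.606 and 0.699 counts of miR-16-5p in the control libraries, 0.399, 0.601 and 0.361 in the L-Tyr libraries, and 0.350, 0.564 and 0.501 in the 5-Brd-2′-dU libraries. Every exposed library had a lower ratio than every control library, also without replicate 3, although replicate 2 of L-Tyr was only just below. The ratio was chosen after its values were seen and both exposures were set against the same control libraries, so it is a description without a test.

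**Figure D2:**
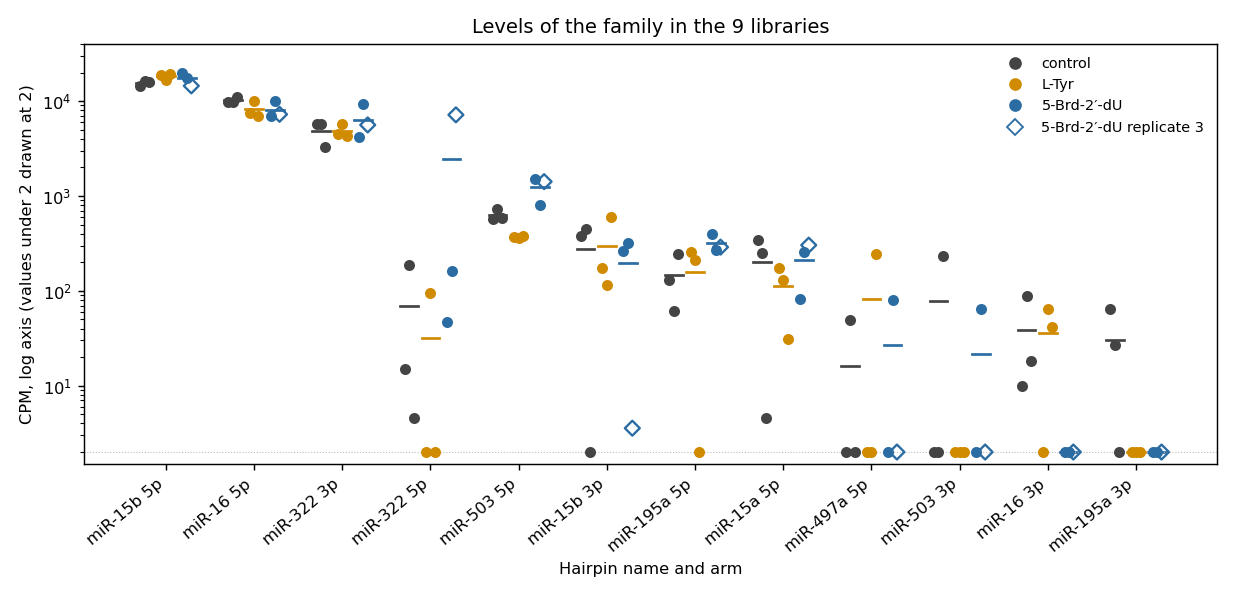
CPM of the 12 arms with a count, on a log axis, in the 9 libraries, with a point for each library and a bar for each group mean. The levels fall from miR-15b-5p (14369 to 19871 CPM) to arms that were at 0 in several libraries. miR-503-5p is the arm whose 3 groups do not overlap, beside 20.3% to 27.3% of all sums tested that are apart in a single comparison.

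miR-503-5p was the member arm whose libraries did not overlap between any 2 of the 3 groups, although no comparison passed the test. Of all sums tested, 21.5% did not overlap for L-Tyr relative to control. The share was 27.3% for 5-Brd-2′-dU relative to control and 20.3% between the exposures. The share of all sums apart in all 3 comparisons at once was not computed. Its level was 576, 731 and 583 CPM in control cells, 372, 359 and 377 CPM with L-Tyr, and 1494, 799 and 1416 CPM with 5-Brd-2′-dU. The L-Tyr libraries lay below all control libraries and the 5-Brd-2′-dU libraries above them, and this order was the same under scaling by total count and by DESeq2's size factors. These levels rest on 56 to 397 counts per library. The log2 fold change was -0.88 ± 0.51 (SE) for L-Tyr relative to control, with an adjusted p of 0.481 by edgeR. In 5-Brd-2′-dU against control cells it was 1.08 ± 0.38, with an unadjusted p of 0.0242 and an adjusted p of 0.178 by edgeR. Between 5-Brd-2′-dU and L-Tyr it was 1.80 ± 0.48 (95% interval 0.70 to 2.90), with an unadjusted p of 0.00539 and an adjusted p of 0.150 by edgeR. Without replicate 3 the last 2 values were 0.94 ± 0.42 and 1.64 ± 0.56, with adjusted p of 0.404 and 0.377 by edgeR. The exact permutation test gave p = 0.1 in each of the 3 comparisons, the lowest value possible with 3 libraries in each group. DESeq2's Wald test was the only alternative that called a change of miR-503-5p, for 5-Brd-2′-dU compared with L-Tyr (log2 fold change 1.81, adjusted p = 0.00971). The adjusted p in that comparison ranged from 0.00971 to 0.405 over 16 alternatives. These leave out the fit of the most abundant tag, which gave an adjusted p of 0.539 by edgeR.

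miR-322 was counted mostly in its 3p arm, and its 2 arms did not move together. miR-322-3p was at 5695, 5742 and 3250 CPM in control cells, 4521, 5691 and 4272 CPM with L-Tyr, and 4186, 9230 and 5608 CPM with 5-Brd-2′-dU. The groups overlapped in all 3 comparisons, and the highest value, in replicate 2 of 5-Brd-2′-dU, set that group's mean of 6341 ± 2600 CPM (SD, n = 3). Relative to control the log2 fold change was -0.13 ± 0.29 (SE) for L-Tyr, and that of 5-Brd-2′-dU was 0.52 ± 0.40, with adjusted p of 0.920 and 0.599 by edgeR. For 5-Brd-2′-dU without replicate 3 it was 0.54 ± 0.42.

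miR-322-5p, the arm with the family seed, was scarce in all libraries but 1. It had 3, 85 and 1 counts in the control libraries, 0, 25 and 0 counts in the L-Tyr libraries, and 8, 75 and 2009 counts in the 5-Brd-2′-dU libraries. Replicate 3 of 5-Brd-2′-dU thus held 91.1% of the 2206 counts of this arm. The log2 fold change was 5.08 ± 2.07 (SE) for 5-Brd-2′-dU relative to control, with an unadjusted p of 0.0411 and an adjusted p of 0.208 by edgeR, and 6.22 ± 2.22 compared with L-Tyr (adjusted p = 0.222 by edgeR). Of 16 alternatives, only the fit without a filter on low counts called these changes (adjusted p of 1.2e-13 and 1.8e-11 by edgeR). DESeq2's Wald test, among the 16, gave no adjusted p for this arm and so no verdict. The most abundant tag, not among the 16, gave adjusted p of 0.153 and 0.369 by edgeR. Without replicate 3 the log2 fold changes were 0.62 ± 1.64 and 1.68 ± 2.32, with adjusted p of 0.943 and 0.956 by edgeR. The 2 other 5-Brd-2′-dU libraries, at 46.5 and 162 CPM, lay within the control range of 4.56 to 188 CPM. Most markers of stromal, endothelial, erythroid and leukocyte cells were high in the same library, and their part in the level of miR-322-5p was not tested.

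The tags of miR-322-5p are shown because the excess rested on several of them. The bases of the annotated seed are in capitals, and the tags are written as DNA, as in the deposited counts. The first tag had 1183 of its 1245 counts in replicate 3 of 5-Brd-2′-dU, and the second 327 of 338.

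miR-322 5p tag of 20 nt: cAGCAGCAattcatgttttg
miR-322 5p tag of 19 nt: cAGCAGCAattcatgtttt

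Of the 2009 counts in this library, 438 were in tags that did not match mm9 exactly at the locus, against 1 such count in the other 8 libraries together. Both tags shown matched exactly and started at the annotated 5′ end.

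**Figure D3:**
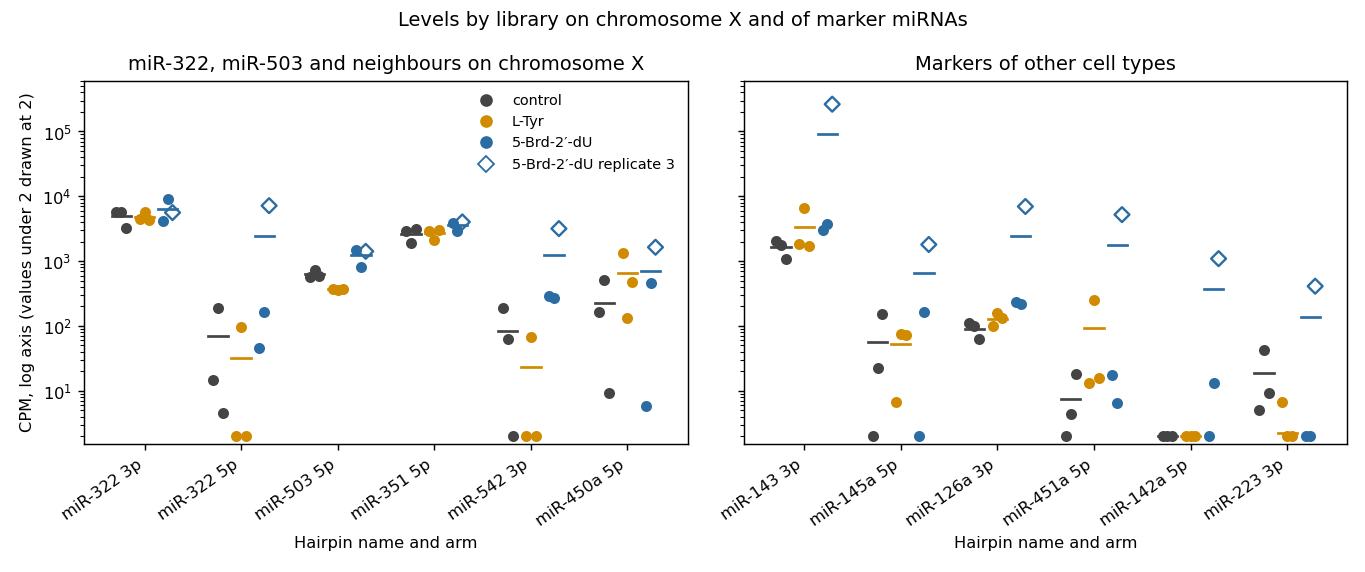
CPM on a log axis in the 9 libraries, on the left for miR-322, miR-503 and neighbouring hairpins of chromosome X and on the right for miRNAs that mark stromal (miR-143, miR-145a), endothelial (miR-126a), erythroid (miR-451a) and leukocyte (miR-142a, miR-223) cells. Replicate 3 of 5-Brd-2′-dU, drawn as an open diamond, lies far above the other libraries for miR-322-5p, miR-542-3p and the 6 markers drawn, but within its group for miR-322-3p, miR-503-5p and miR-351-5p.

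The other hairpins of this chromosome X cluster were mir-351, mir-542, mir-450a and mir-450b. Of their 8 sums with a count, 4, 7 and 5 were tested for L-Tyr relative to control, 5-Brd-2′-dU relative to control and 5-Brd-2′-dU compared with L-Tyr, and none passed an adjusted p under 0.05 by edgeR. Over all sums tested, 2.58%, 4.74% and 2.70% passed. An unadjusted p under 0.05 was reached by 0, 2 and 1 of the neighbours, beside 15.0%, 20.6% and 13.1% of all sums. Without replicate 3 it was reached by 0 of them in both 5-Brd-2′-dU comparisons, beside 13.2% and 10.0% of all sums. miR-351-5p, the most abundant of them, was at 2895, 1880 and 3140 CPM in control cells, 2915, 2155 and 2977 CPM with L-Tyr, and 3942, 2962 and 4028 CPM with 5-Brd-2′-dU. The log2 fold change of miR-351-5p for 5-Brd-2′-dU relative to control was 0.61 ± 0.25 (SE), with an adjusted p of 0.217 by edgeR, and 0.49 ± 0.29 without replicate 3. miR-542-3p had 49, 125 and 890 counts in the 5-Brd-2′-dU libraries and at most 38 in any other library. Its log2 fold change of 4.0 ± 1.56 for 5-Brd-2′-dU relative to control fell to 1.81 ± 1.46 without replicate 3. The median change of the tested neighbours in that comparison was 0.95, beside 0.02 over all sums tested. It was 0.12 without replicate 3, beside -0.08 over all sums, so that the higher median rested on that library.

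The remaining arms had at most 201 counts in a library. miR-195a-5p had 26, 28 and 54 counts in control cells, 39, 56 and 0 counts with L-Tyr, and 69, 124 and 81 counts with 5-Brd-2′-dU. In CPM the 5-Brd-2′-dU libraries (268 to 401 CPM) lay above all control (62.0 to 246 CPM) and L-Tyr (0 to 259 CPM) libraries, with a log2 fold change relative to control of 1.29 ± 0.68 (SE), and 1.32 ± 0.75 without replicate 3. The adjusted p by edgeR was 0.364, and 0.519 without replicate 3. With scaling by total count, the 5-Brd-2′-dU libraries no longer lay above all L-Tyr libraries for miR-195a-5p. Of all sums tested, 27.3% were apart between 5-Brd-2′-dU and control and 20.3% between the exposures.

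miR-15a-5p, from the Dleu2 locus, had 70, 113 and 1 counts in control cells, 26, 34 and 6 counts with L-Tyr, and 14, 119 and 85 counts with 5-Brd-2′-dU. The groups overlapped, and its log2 fold change relative to control was -0.99 ± 1.32 (SE) with L-Tyr, and 0.22 ± 1.21 with 5-Brd-2′-dU. Without replicate 3 of 5-Brd-2′-dU the latter was -0.16 ± 1.39. The level of miR-15a-5p was below that of miR-15b-5p in every library, with 1 to 119 counts against 2841 to 8189.

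miR-15b-3p had 76, 201 and 0 counts in control cells, 26, 30 and 114 counts with L-Tyr, and 45, 147 and 1 counts with 5-Brd-2′-dU. Its log2 fold change for 5-Brd-2′-dU relative to control was -0.38 ± 1.70 (SE), and 0.13 ± 1.50 without replicate 3. miR-497a-5p was counted in 3 libraries, with 22 counts in control replicate 2, 47 in L-Tyr replicate 3 and 37 in 5-Brd-2′-dU replicate 2. miR-503-3p was counted in 2 libraries, with 51 counts in control replicate 3 and 30 in 5-Brd-2′-dU replicate 2. miR-195a-3p had 13 and 12 counts in control replicates 1 and 2 and none elsewhere, and no count was found for miR-15a-3p or miR-497a-3p.

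miR-16-3p had 2, 40 and 4 counts in control cells, 0, 17 and 8 counts with L-Tyr, and none in the 3 5-Brd-2′-dU libraries, where 3 counts allow up to between 7.80 and 17.5 CPM of the library total. Its 3p tags differ between the copies, and 28 counts belonged to mir-16-1 and 43 to mir-16-2. Most 5p tags cannot be told apart. Of the counts of miR-16-5p, 132 were in sequences under 1 copy only, while 24 sequences were listed under both copies. Of the counts of these sequences, 49.5% were under mir-16-1 (95% Wilson interval 48.9 to 50.2%, counting error only). Counts of miR-16-5p were therefore summed over both copies.

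Across the whole table, none of the members passed the test in any comparison. For L-Tyr relative to control, 8 member arms were tested and 0 were called by edgeR at an adjusted p under 0.05, beside 2.58% of all 233 sums tested. At an unadjusted p under 0.05 there were 0 member arms, beside 15.0% of all sums. The 2 groups had no overlap in 2 of the 8 arms, miR-15b-5p (higher) and miR-503-5p (lower), beside 21.5% of all sums, a share near the background. The median log2 fold change was -0.20 for the members and -0.20 for all sums tested.

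Between 5-Brd-2′-dU and control cells, 0 of 8 member arms were called at an adjusted p under 0.05 by edgeR, beside 4.74% of 253 sums. At an unadjusted p under 0.05 there were 2, miR-322-5p and miR-503-5p, both higher, beside 20.6% of all sums. Without replicate 3, 10 member arms were tested, with 0 at an adjusted p under 0.05 (1.79% of 280 sums) and 0 at an unadjusted p under 0.05 (13.2%). The groups did not overlap for 2 arms, miR-195a-5p and miR-503-5p, beside 27.3% of all sums, which is also near the background. Both arms were also apart without replicate 3, and so was miR-15b-5p (higher). The share of all sums that were apart in that setting was not computed. Groups of 2 and 3 libraries come apart more easily than 2 groups of 3. The members' median log2 fold change was 0.41, beside 0.02 for all sums, and 0.46 beside -0.08 without replicate 3. These 8 arms were not the same as those tested for L-Tyr relative to control. They included miR-322-5p, which passed the filter only in comparisons with 5-Brd-2′-dU and had most of its counts in replicate 3. They left out miR-16-3p, which was at 0 in all 5-Brd-2′-dU libraries. Medians and counts of arms in the comparisons thus rest on different arms.

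When 5-Brd-2′-dU was compared with L-Tyr, 0 of 8 member arms were called at an adjusted p under 0.05 by edgeR, beside 2.70% of 222 sums. The 2 arms with an unadjusted p under 0.05 were again miR-322-5p and miR-503-5p, beside 13.1% of all sums, and the 2 arms whose groups did not overlap were miR-195a-5p and miR-503-5p, beside 20.3%. Without replicate 3, 0 of 9 member arms had an adjusted p under 0.05 (2.01% of 249 sums), and 1, miR-503-5p, had an unadjusted p under 0.05 (10.0%). The members' median log2 fold change was 0.77, beside 0.12 for all sums, and without replicate 3 it was 0.49, beside 0.02. With every library the arms tested were those of the preceding comparison, with miR-322-5p and without miR-16-3p. This comparison shares its 5-Brd-2′-dU libraries with the preceding one. DESeq2's Wald test called miR-503-5p alone among the members, and only here.

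**Figure D4:**
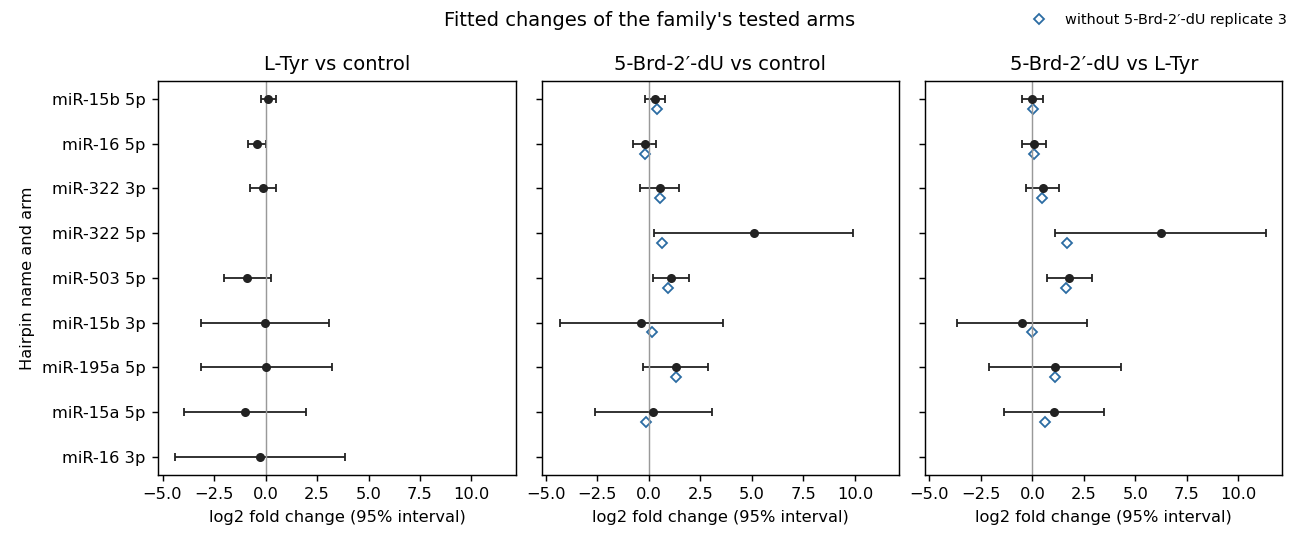
Log2 fold changes of the tested member arms in the 3 comparisons, with 95% intervals of the edgeR fit, and the value without replicate 3 of 5-Brd-2′-dU as an open diamond. The intervals of miR-15b-5p and miR-16-5p are narrow and include 0, that of miR-503-5p lies above 0 in both comparisons of 5-Brd-2′-dU before adjustment (0.18 to 1.97 and 0.70 to 2.90), and miR-322-5p moves from 5.08 and 6.22 to 0.62 and 1.68 without replicate 3.

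The use of the 2 arms was compared within each hairpin. In miR-322 the 3p arm held between 96.8% and 100% of counts in 8 libraries and 43.9% in replicate 3 of 5-Brd-2′-dU. The mean was 98.8% ± 1.72 (SD, n = 3) in control cells, 99.5% ± 0.951 with L-Tyr and 80.4% ± 31.6 with 5-Brd-2′-dU, or 98.6% without replicate 3. The exact permutation test, two-sided, gave p = 0.5 for 5-Brd-2′-dU relative to control and p = 0.2 compared with L-Tyr. Without replicate 3 the exact test gave p = 1 and p = 0.4. miR-15b and miR-16 were 5p-dominant in all libraries, with at most 3.02% and 0.894% of counts in the 3p arm. In miR-503 the 3p arm was at 0 in 7 libraries, 28.5% in control replicate 3 and 7.5% in 5-Brd-2′-dU replicate 2. All 51 counts of this arm in control replicate 3 were in a tag that did not match mm9 exactly at the locus. Among these 4 members and 3 comparisons the smallest exact p was 0.1, for miR-16 in 5-Brd-2′-dU relative to control, where the 3p arm was at 0 in the exposed libraries.

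The tags also showed where each miRNA was counted as starting, which sets the seed. No tag in the table was longer than 20 nt, although the mature forms shown have 21 to 23 nt, and 61.9% of the members' tag counts were in tags of 20 nt. What the counting did with longer reads is not given in the sources used here, so that starts describe these tags and not whole molecules. Of the counts of miR-503-5p, 88.1% started at the annotated 5′ end, and so did 71.8% of miR-322-5p, 70.7% of miR-322-3p and 43.1% of miR-15b-5p. In miR-16-5p only 7.55% did, and the most common start, 2 nt further in, held 39.3%. A start 2 nt inside was also the most common in miR-15a-5p (42.5%), miR-195a-5p (49.6%) and miR-497a-5p (81.1%), and no count of miR-497a-5p began at the annotated end. A tag of 20 nt that starts 2 nt inside a mature form of 22 nt ends at its annotated 3′ end, as did 75.6% of the counts of miR-16-5p against 30.7% of those of miR-15b-5p.

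The most abundant tags of 3 arms are shown with the bases of the annotated seed in capitals, to show what was counted. The tag of miR-16 lacks the first base of the seed.

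miR-15b 5p tag: tAGCAGCAcatcatggttta
miR-16 5p tag: GCAGCAcgtaaatattggcg
miR-503 5p tag: tAGCAGCGggaacagtactg

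The tag of miR-15b held 30.2% of its arm and that of miR-503 43.1%. In the whole table the seed AGCAGCA at bases 2 to 8 was found only in tags of members, and AGCAGCG only in those of miR-503.

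**Figure D5:**
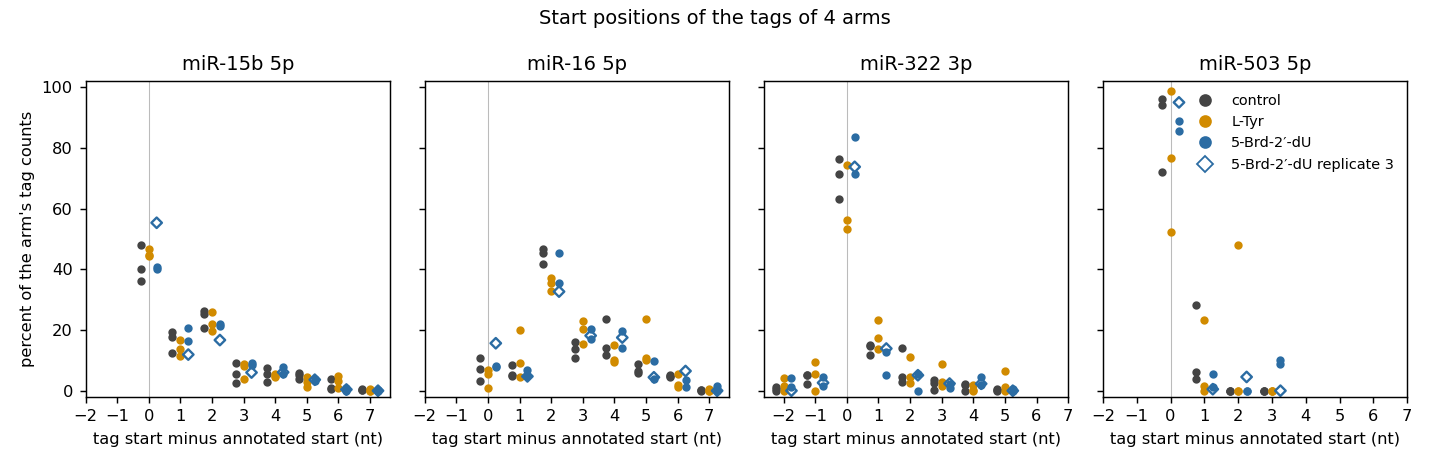
Percent of tag counts by start position, in nt from the annotated 5′ end, for miR-15b-5p, miR-16-5p, miR-322-3p and miR-503-5p, with a point for each library. miR-15b-5p, miR-322-3p and miR-503-5p peak at 0, while miR-16-5p peaks at 2 nt in every library (32.6 to 46.7%).

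The main start was compared between groups for the 4 arms with at least 20 counts in every library. In miR-16-5p the start at 2 nt held 46.7%, 45.2% and 41.8% of counts in the control libraries, 37.2%, 35.4% and 33.0% in the L-Tyr libraries, and 45.2%, 35.3% and 32.6% in the 5-Brd-2′-dU libraries. The L-Tyr libraries lay below all control libraries, with an exact permutation p of 0.1, two-sided, again the lowest value possible. The 5-Brd-2′-dU libraries overlapped the control libraries, with p = 0.2 by the same exact test, and p = 0.4 without replicate 3. For miR-15b-5p, miR-322-3p and miR-503-5p the groups overlapped in all comparisons that used every library, with exact p of 0.3 or more. Without replicate 3 the main start of miR-15b-5p held 40.1% and 40.6% with 5-Brd-2′-dU, below the 44.5% to 46.8% with L-Tyr. The exact test gave p = 0.2, the lowest value possible with 2 against 3 libraries. No share over all sums was computed for starts.

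Other miRNAs known for acting on the G1 to S step, among them the let-7, miR-17, miR-34 and miR-221 groups, formed a list of 31 names with 52 counted sums. For L-Tyr relative to control 32 of these sums were tested. Of these, 1 was called lower and 0 higher, near the 2.58% of all sums. An unadjusted p under 0.05 was reached by 7, beside 15.0% of all sums. The median log2 fold change was -0.46, beside -0.20 over all sums. The called one was let-7d-5p, which targets cell cycle and growth genes, at 21324, 13413 and 22379 CPM in control cells and 9348, 11055 and 8606 CPM with L-Tyr. The change of let-7d-5p was -1.06 ± 0.21 (log2, SE), with an adjusted p of 0.0268 by edgeR that ranged from 0.000455 to 0.237 over the alternatives. With 5-Brd-2′-dU, 34 were tested against control, and 1 was called higher and 0 lower, near the 4.74% of all sums. An unadjusted p under 0.05 was reached by 6, beside 20.6%. The median was -0.08, beside 0.02 over all sums. Without replicate 3 the median was -0.21, beside -0.08. Then 0 of 37 were called, beside 1.79% of all sums, and 4 had an unadjusted p under 0.05, beside 13.2%. The sum called with every library was miR-365-3p, at 194, 148 and 438 CPM in control cells and 1139, 1275 and 1202 CPM with 5-Brd-2′-dU. Its log2 fold change was 2.38 ± 0.50. The adjusted p by edgeR was 0.0364, and 0.0881 without replicate 3. Over the alternatives it ranged from 0.000292 to 0.231. Between the exposures none of the 32 tested was called by edgeR (2.70% of all sums), and 4 had an unadjusted p under 0.05, beside 13.1% of all sums. Without replicate 3, 0 of 33 were called, beside 2.01%, and 5 had an unadjusted p under 0.05, beside 10.0%.

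The names whose pattern over the 9 libraries was most like that of miR-15b-5p were miR-674-3p (Pearson r = 0.84 of log2 CPM), miR-203-3p (0.80) and miR-129-3p (0.73), among the sums with a mean of at least 100 CPM. For miR-16-5p they were miR-361-5p (0.87), miR-148b-3p (0.82) and a hairpin predicted by the counting app, global-novelMiR-1828 5p (0.80). These are descriptions over 9 libraries that share 1 scaling, without a test.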

How the data were processed

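Small RNA libraries from 9 cultures of B16F1 cells were grouped by the sample labels into control, L-Tyr and 5-Brd-2′-dU, with 3 replicates each. The study's methods speak of independent replicates without saying here what was separate between them, so p-values measure the spread between these libraries, which may be technical. The authors processed single reads with the BaseSpace Small RNA app against mm9 and miRBase, and deposited raw counts per sequence tag or mature name, which were used here without change. The authors' normalized counts and their DESeq2 comparison tables, which hold fold changes and p-values, were not used.

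Counts were summed by hairpin name, without the copy number, and arm (tags with a start number under 35 were 5p), over the whole table. Each comparison of 6 libraries was fitted in R 4.3.3 with edgeR 4.0.16 (TMM, filterByExpr, quasi-likelihood F test, Benjamini-Hochberg adjustment over all sums tested, call at an adjusted p under 0.05). The SE is the size of the log2 fold change divided by the square root of F. CPM, arm shares and start shares were compared by exact two-sided permutation tests in scipy 1.17.1, over members with at least 20 counts in every library for shares. Starts and loci came from exact matches of RefSeq mature sequences to NCBIM37 (mm9). Total counts per library were 144452 to 424122, and the Wilson interval and the limits for a count of 0 cover counting error only. Intervals of fold changes come from the edgeR fit and include the spread between libraries.

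The procedure was tested on simulated data. For L-Tyr relative to control 233 sums were simulated, and 209 passed the filter and were tested. Of those tested and changed by a log2 fold of 3 it called 43.5%, and of those changed by 1 it called 17.9%. For 5-Brd-2′-dU relative to control, with 229 of 253 sums tested, it called 73.1% and 12.9%. For 5-Brd-2′-dU compared with L-Tyr, with 200 of 222 sums tested, it called 42.1% and 3.4%. Of its 16, 25 and 9 calls, 1, 2 and 0 were of unchanged sums.

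The members and lists were chosen with earlier results of these data known. Named were every member in each arm with a count, for the 2 most abundant arms the 3 names most alike in log2 CPM (prior count 2), the most abundant tag of an arm, and list members on which a result turned. The ratio of miR-16-5p to miR-15b-5p was added after seeing the data. Alternatives were DESeq2 1.42.0 size factors and Wald test, total count, TMM without mir-3963, a mean count of at least 50, no filter, all 9 libraries in 1 fit, a replicate block, the most abundant tag, identical sequences counted once, tags of at least 17 nt, and each library left out. Same-numbered libraries did not deviate together (0 of 9 pairs with a correlation over 0.1).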

Additional observations from a re-analysis of the deposited data

How the results depend on the processing

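Depth and the spread between libraries both limit the values. At up to 424122 counts per library, members other than miR-15b-5p, miR-16-5p, miR-322-3p and miR-503-5p had fewer than 20 counts in at least 1 library. The scalings moved the median of all sums tested for L-Tyr relative to control from -0.20 to 0.07 (log2) with total counts, and for 5-Brd-2′-dU compared with L-Tyr from 0.12 to -0.10. For L-Tyr relative to control, the 6 sums called became 12 without a filter, 17 with DESeq2's Wald test, 10 with the replicate block and 1 with the most abundant tag, and 0 to 7 when 1 library was left out. Between 5-Brd-2′-dU and control, the 12 called became 6 with DESeq2's size factors or with TMM without mir-3963, 3 with total counts, 49 without a filter, 28 with DESeq2's Wald test, 1 with the replicate block and 0 with the most abundant tag, and 0 to 13 when 1 library was left out (5 without replicate 3 of 5-Brd-2′-dU). Between the exposures, the 6 called became 27 without a filter, 11 with DESeq2's Wald test, 3 with all 9 libraries, and 2 with the replicate block or with the most abundant tag, and 0 to 5 when 1 library was left out. The cause of these shifts was not tested, except that fewer libraries or tags of lower counts enter the last 2 kinds of fit.

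Of the fitted changes of member arms, 3 gained a call: miR-322-5p without a filter for 5-Brd-2′-dU relative to control (log2 fold change 4.98) and relative to L-Tyr (6.13), and miR-503-5p with DESeq2's Wald test relative to L-Tyr (1.81). The most abundant tag of miR-15b-3p gave 1.63 for L-Tyr relative to control, against -0.03 for the arm. The share of the main start of miR-503-5p, 5-Brd-2′-dU minus L-Tyr, was 13.9 percentage points with all tags and -2.01 with tags of at least 17 nt, the opposite direction. The family total of L-Tyr was 32401 CPM with TMM and 34971 CPM with total counts. Replicate numbers were shared between the groups only as numbers: correlations of same-numbered libraries ranged from -0.11 to 0.04. In 2 of 9 such pairs the library correlated best with its own number in the other group. The block called no member arm.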

Other observations

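miR-103-3p and miR-107-3p, whose seed overlaps that of the family by a shift, were counted in every library. miR-103-3p was at 13971, 15412 and 10141 CPM in control cells, 14321, 13676 and 14209 CPM with L-Tyr, and 9412, 11228 and 8612 CPM with 5-Brd-2′-dU. The 5-Brd-2′-dU libraries overlapped the control libraries and lay below the L-Tyr libraries, beside 20.3% of all sums apart between the exposures. miR-107-3p was at 1465, 1417 and 1919 CPM in control cells, 418, 1331 and 1027 CPM with L-Tyr, and 924, 1126 and 928 CPM with 5-Brd-2′-dU. Its exposed groups overlapped each other and both lay below control, beside 21.5% (L-Tyr) and 27.3% (5-Brd-2′-dU) of all sums apart from control. The list of related seeds had 8 names, of which these 2 had counts. In every comparison 0 of 2 were called by edgeR, with 0 at an unadjusted p under 0.05. Over all sums tested, 2.58%, 4.74% and 2.70% were called for L-Tyr and 5-Brd-2′-dU relative to control and between the exposures. The shares at an unadjusted p under 0.05 were 15.0%, 20.6% and 13.1%. The hairpins mir-195b, mir-497b, mir-1907, mir-6342, mir-6353 and mir-6419 were at 0 in all 9 libraries.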
